A study of Mus musculus with 10 samples.

Results

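The Cyp3a cytochrome P450 genes of mouse liver are described here as the 8 genes named Cyp3a11, Cyp3a13, Cyp3a16, Cyp3a25, Cyp3a41a, Cyp3a41b, Cyp3a44 and Cyp3a59, taken by symbol from a table of 55291 genes. All 8 passed the filter on low counts that left 17015 genes for testing. Bulk RNA-seq of liver was made from 10 female mice aged 16 to 20 weeks that carry a Cas9 gene held silent by a loxP-flanked stop cassette. Every mouse, controls included, received an AAV8 virus with a guide RNA and a Cre gene under the TBG promoter, so that Cas9 is switched on in hepatocytes and the other cells of the liver keep their Bap1. The guide was non-targeting (NTC) or directed against Bap1 (sgBap1), a deubiquitinase gene. On day 10 the mice were injected intraperitoneally with carbon tetrachloride (CCl4), 1 part in 9 parts of olive oil, or with olive oil alone (vehicle, Veh), and livers were taken 48 hours later. The groups were NTC-Veh and sgBap1-Veh with 2 mice each, and NTC-CCl4 and sgBap1-CCl4 with 3 mice each.

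Cyp3a enzymes are haem-containing monooxygenases of the endoplasmic reticulum that take electrons from cytochrome P450 reductase (Por) and oxidise many drugs, steroid hormones and bile acids. Their genes are classic targets of the xenobiotic receptors PXR (Nr1i2) and CAR (Nr1i3), and in mouse liver several of them differ between the sexes under the pattern of growth hormone release. CCl4 is turned into a toxic radical by P450 enzymes, chiefly Cyp2e1, in the hepatocytes around the central veins, where much of the P450 of the liver is found.

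Levels are given in CPM, the usual unit of counts scaled to a common library size, here after TMM normalisation. The targeted gene, Bap1, measured 29.5 to 34.8 CPM in the 5 NTC livers and 17.0 to 21.8 CPM in the 5 sgBap1 livers, without overlap. Total estimated counts ran from 33047904 to 52199904 a library. A floor of 3 counts, below which a level was not told from 0, equals 0.0511 to 0.112 CPM depending on the library, and this floor takes in counting error alone. Hepatocyte genes such as Alb, which averaged 76029 CPM over the 10 livers, were high in all of them. The 2nd sgBap1-CCl4 liver stood apart by fat cell RNA, with 36.4 CPM of Adipoq and 34.5 CPM of Plin1, while each of the other 9 livers had at most 2 counts of either. In this liver the summed fat cell markers reached 608 CPM, against 21.5 to 40.2 CPM elsewhere, and its values are named beside the results they touch.

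The family shares sequence to very unequal degrees, which sets how well each member could be counted from paired reads of 50 bases. Positions below follow the GENCODE vM21 models (GRCm38). Cyp3a13 lies apart on chromosome 5 from 137892932 to 137921619, and the other members lie in a cluster on the same chromosome. In the order along the chromosome these are Cyp3a16 (145436309 to 145469723), Cyp3a41b (145558664 to 145584730), Cyp3a41a (145694049 to 145720136), Cyp3a44 (145773983 to 145805874), Cyp3a11 (145854426 to 145879964), Cyp3a25 (145977194 to 146009618) and Cyp3a59 (146079257 to 146113287). Cyp3a59 is on the plus strand and the others are on the minus strand, and each has 13 coding exons. Cyp3a13 also contains Gm15502, a processed pseudogene on the same strand.

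Cyp3a41a and Cyp3a41b were nearly one sequence. Their coding sequences differed at 2 of 1512 positions, and 93.7% of the stretches of 50 bases in the Cyp3a41a transcript were also found in Cyp3a41b. With all other genes counted, 98.6% of the Cyp3a41a and 93.5% of the Cyp3a41b stretches occurred elsewhere. Summing the pair therefore leaves out the reads shared with further genes. Both coding differences leave the amino acid unchanged. They are shown because they are the only coding bases by which a read can tell the genes apart, with the differing base in capitals at the 21st of 41 bases and positions counted from 1 at the start codon.
Cyp3a41a at G120A: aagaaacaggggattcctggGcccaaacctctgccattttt
Cyp3a41b at G120A: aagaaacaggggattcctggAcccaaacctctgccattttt
Cyp3a41a at G336T: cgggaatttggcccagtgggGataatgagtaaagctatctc
Cyp3a41b at G336T: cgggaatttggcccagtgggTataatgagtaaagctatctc

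In each of these tokens the base of Cyp3a41a stands first and that of Cyp3a41b last. Cyp3a25 and Cyp3a59 were the next closest, with 97.5% identical coding positions, and 25.2% of the Cyp3a25 stretches occurred in Cyp3a59. Cyp3a11, Cyp3a16, Cyp3a41a, Cyp3a41b and Cyp3a44 formed a block with 92.4% to 99.9% identity between any pair of them. Within that block, 6.73% of the Cyp3a11 stretches, 10.7% of those of Cyp3a16 and 26.5% of those of Cyp3a44 were shared with another Cyp3a gene. The stretches of Cyp3a11 were pooled over 2 transcripts and those of Cyp3a16 and Cyp3a44 come from 1 each, so its share is not directly comparable. Cyp3a13 shared none and was at most 76.5% identical to any member, so that its counts are the least open to reads from the others. The division of reads between Cyp3a41a and Cyp3a41b, and to a lesser degree between Cyp3a25 and Cyp3a59, is therefore uncertain. To a like lesser degree this holds for Cyp3a44, whose stretches were shared most with Cyp3a41a (11.5%).

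**Figure D1:**
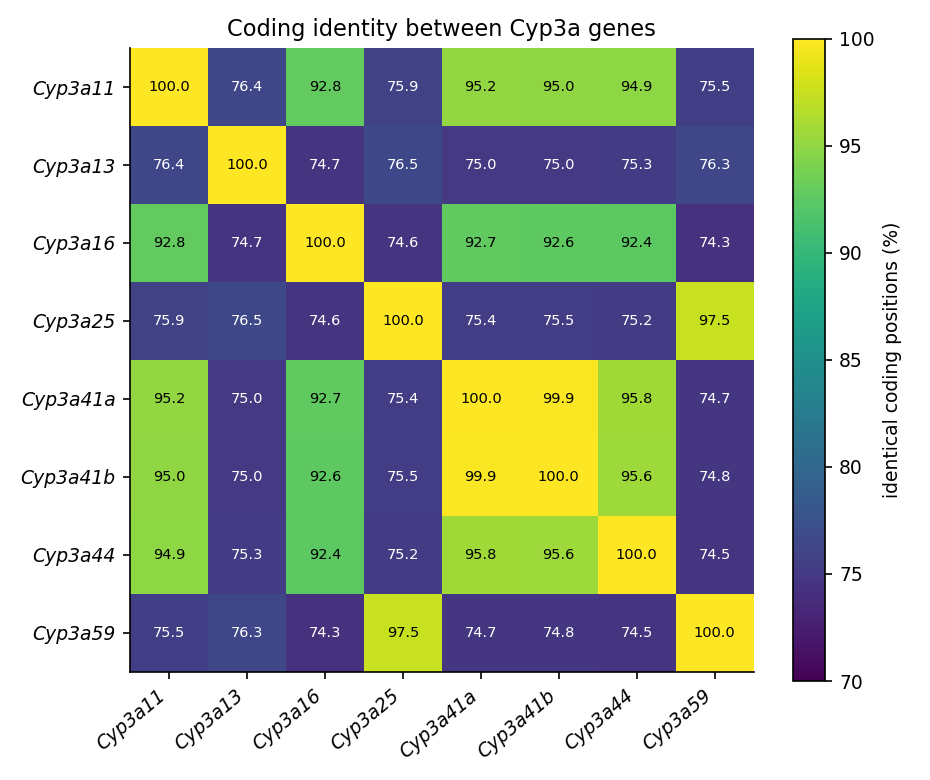
Identical positions (%) between the coding sequences of the 8 Cyp3a genes, with one cell for each pair of genes, coloured from low (dark) to high (bright). Cyp3a41a and Cyp3a41b reach 99.9%, Cyp3a25 and Cyp3a59 form a pair at 97.5%, and Cyp3a13 stays at or below 76.5% with every other gene.

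The sequences before the transcription starts grouped differently for Cyp3a11. All 8 members were found in the RefSeq promoter table (GRCm38.p6), and the 250 bases before the start were compared. Cyp3a41a and Cyp3a41b differed there at 1 position, 29 bases before the start, Cyp3a16 and Cyp3a44 were 90.9% to 94.8% identical to them, and Cyp3a25 and Cyp3a59 were 94.8% identical to each other. Cyp3a11, by contrast, was 71.7% to 76.2% identical to the genes of its coding block, and Cyp3a13 at most 52.7% to any member. A stretch is printed for 1 gene of each group of like sequences, so that the groups can be compared. It ends at the base before the start, for Cyp3a11 at the base before the earlier GENCODE start, and capitals mark AGGTCA or AGTTCA, the hexamers that nuclear receptors such as PXR and CAR bind, on either strand.
Cyp3a11, chr5:145879965-145880054, minus strand: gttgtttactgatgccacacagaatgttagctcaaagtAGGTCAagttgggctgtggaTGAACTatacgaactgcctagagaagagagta
Cyp3a13, chr5:137921620-137921819, minus strand: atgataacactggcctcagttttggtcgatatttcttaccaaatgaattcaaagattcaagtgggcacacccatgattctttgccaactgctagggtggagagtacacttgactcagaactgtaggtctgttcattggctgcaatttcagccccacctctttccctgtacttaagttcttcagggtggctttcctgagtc
Cyp3a25, chr5:146009619-146009818, minus strand: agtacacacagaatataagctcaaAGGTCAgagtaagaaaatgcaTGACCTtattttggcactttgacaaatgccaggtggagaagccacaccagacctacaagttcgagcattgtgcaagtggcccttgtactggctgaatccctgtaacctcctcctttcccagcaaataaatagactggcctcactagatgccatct
Cyp3a41a, chr5:145720137-145720336, minus strand: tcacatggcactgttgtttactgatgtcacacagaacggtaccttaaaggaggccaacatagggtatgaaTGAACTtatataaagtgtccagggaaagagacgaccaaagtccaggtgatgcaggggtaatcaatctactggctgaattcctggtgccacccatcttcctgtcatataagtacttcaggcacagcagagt

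Over the 250 bases, AGGTCA was present in Cyp3a11, Cyp3a25, Cyp3a44 and Cyp3a59, and in 14.0% of all 32851 promoters of the table. AGTTCA was present in Cyp3a11, Cyp3a41a and Cyp3a41b, against 11.8% of all promoters, and Cyp3a13 and Cyp3a16 held neither. CAAAG, part of the HNF4 motif, was found in all 8 members and in 48.6% of all promoters. TTCNNNGAA, the letters that STAT factors bind, was found in none of the 8 members and in 7.02% of all promoters. Each motif was searched on both strands, and a match of letters is not a measured binding site.

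Per kilobase of the longest protein-coding transcript, the order of the levels in NTC-Veh livers (n = 2) ran from Cyp3a11 down to Cyp3a41b. Cyp3a11, the main Cyp3a enzyme of adult mouse liver, measured 686 ± 133 CPM per kilobase (SD), Cyp3a41a 389 ± 318 and Cyp3a25 227 ± 20.8. Cyp3a13 followed with 65.5 ± 2.80, Cyp3a44 with 31.8 ± 4.71 and Cyp3a59 with 22.9 ± 6.95 CPM per kilobase. The lowest were Cyp3a16 with 4.31 ± 1.26 and Cyp3a41b with 2.25 ± 2.28 CPM per kilobase. The livers of the neighbours Cyp3a11 and Cyp3a41a overlapped on this scale, as did those of Cyp3a41a and Cyp3a25 and those of Cyp3a16 and Cyp3a41b, while the other neighbours were apart in both livers. In sgBap1-Veh livers Cyp3a41a came first, with 1139.8 ± 234 CPM per kilobase (n = 2), ahead of Cyp3a11 with 864 ± 28.3, and both livers kept that order.

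CCl4 lowered the whole family in both genotypes. In NTC livers all 8 members were called lower than with vehicle (adjusted p under 0.05), where 26.6% of the 17015 tested genes were called lower, and no member overlapped between treated and vehicle mice, which held for 35% of all genes on the lower side. In sgBap1 livers all 8 were again called lower and without overlap, against 28% and 34.9% of all genes. The median log2 fold change of the members was -2.38 in NTC and -3.08 in sgBap1 livers, beside 0.03 and 0.04 for all tested genes. Scaled by library size alone, the medians of all genes were 0.50 and 0.52, so that every value for CCl4 below holds relative to the other genes, and the 8 members were lower under that scaling too. Cyp3a16 and Cyp3a41b passed the filter on low counts through the vehicle livers alone, so their fall is part of how they came to be tested. Their part in these counts of 8 adds no separate support. Fewer hepatocytes and less RNA per hepatocyte cannot be told apart in these bulk samples.

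Cyp3a11 measured 1829 and 1387 CPM in the NTC-Veh livers, 1979 and 2073 in sgBap1-Veh, 345, 308 and 384 in NTC-CCl4, and 185, 176 and 437 in sgBap1-CCl4. Every vehicle liver was above every CCl4 liver, and the 3rd sgBap1-CCl4 liver was the highest of the 6 treated ones. The fall was 4.65-fold in NTC (log2 fold change -2.22 ± 0.35 SE, adjusted p = 0.000631, edgeR's quasi-likelihood test) and 7.62-fold in sgBap1 (-2.93 ± 0.36, adjusted p = 0.000119).

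Cyp3a41a and Cyp3a41b encode enzymes found mainly in female mouse liver. Cyp3a41a measured 1265 and 338 CPM in NTC-Veh, 2007 and 2689 CPM in sgBap1-Veh, 48.7, 42.3 and 36.2 in NTC-CCl4, and 12.4, 6.86 and 119 CPM in sgBap1-CCl4 livers. Vehicle and treated livers did not overlap, but the NTC-Veh livers were far apart, and 1 of the sgBap1-CCl4 livers was well above all other treated ones. The fall with CCl4 was 18.9-fold in NTC (log2 fold change -4.24 ± 1.18, adjusted p = 0.0176) and 51.2-fold in sgBap1 livers (-5.68 ± 1.25, adjusted p = 0.00587, edgeR's quasi-likelihood test). Without the 1st NTC-Veh liver the fall in NTC was -2.99 on the log2 scale with an adjusted p of 0.0921, and without the 3rd NTC-CCl4 liver the adjusted p was 0.056. Without the 3rd sgBap1-CCl4 liver, whose 119 CPM were far above the other treated livers, the log2 fold change in sgBap1 was -7.94.

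Cyp3a41b measured 7.97 and 1.32 CPM in NTC-Veh and 68.0 and 87.3 CPM in sgBap1-Veh livers, and all 6 CCl4 livers had 0 counts. Bounds were set against a floor of 3 counts over the treated group, with the estimated division of reads between the near-identical genes taken as given. On these terms Cyp3a41b was at least 216-fold lower with CCl4 in NTC and at least 4164-fold lower in sgBap1 livers. Error in that division is left out of both bounds. The adjusted p was 0.0245 and 0.00476 (edgeR's quasi-likelihood test), for a gene that came to be tested through its vehicle livers alone. Without the 1st NTC-Veh liver the bound in NTC was 61.4-fold, and without the 2nd it was 368-fold. The call in NTC was lost in 3 fits that left out a mouse of another group, with adjusted p of 0.0526 without the 2nd sgBap1-CCl4 liver and 0.0693 and 0.0705 without the 1st and the 2nd sgBap1-Veh liver. Of the counts assigned to the near-identical genes, Cyp3a41b received 0.626% and 0.391% in the NTC-Veh livers, 3.28% and 3.14% in the sgBap1-Veh livers and none with CCl4. With the counts of both genes summed, log2 fold changes were -4.25 (adjusted p = 0.0174) in NTC and -5.73 (adjusted p = 0.00567) in sgBap1 livers, close to those of Cyp3a41a, which held most of the reads. The summed call in NTC was also lost without the 1st NTC-Veh liver (adjusted p = 0.0917) and without the 3rd NTC-CCl4 liver (adjusted p = 0.0556).

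Cyp3a16, the form typical of fetal and newborn liver, was low throughout. It measured 5.92 and 8.997 CPM in NTC-Veh, 33.4 and 13.0 CPM in sgBap1-Veh, 0.0858, 0.116 and 0.0262 in NTC-CCl4 livers, and in sgBap1-CCl4 livers 0, 0.0516 and 0 CPM. The 3 NTC-CCl4 livers together held 11 counts and the 3 sgBap1-CCl4 livers 3, all of them in the liver with fat cell RNA. From summed counts, the level in NTC-Veh was 93.9 times that in NTC-CCl4 (95% counting interval 52.1 to 189). The level in sgBap1-Veh was 1361 times that in sgBap1-CCl4 (465 to 6605). Both intervals hold counting error alone and leave out the spread between mice. The falls passed the test with adjusted p of 3.67e-06 and 4.82e-07 (edgeR's quasi-likelihood test). Since Cyp3a16 came to be tested through its vehicle livers alone, these values are no separate support for a fall.

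Cyp3a25 and Cyp3a59, the second closely related pair, both fell. Cyp3a25 measured 424 and 483 CPM in NTC-Veh, 445 and 473 CPM in sgBap1-Veh, 78.2, 79.1 and 76.7 in NTC-CCl4, and 57.8, 34.2 and 55.8 CPM in sgBap1-CCl4 livers. The 3 NTC-CCl4 livers lay close together, above all 3 sgBap1-CCl4 livers. Cyp3a25 fell 5.81-fold in NTC (log2 fold change -2.54 ± 0.19, adjusted p = 4.16e-06) and 9.32-fold in sgBap1 livers (-3.22 ± 0.19, adjusted p = 1.3e-06). Cyp3a59 measured 35.7 and 55.3 CPM in NTC-Veh, 43.1 and 31.0 CPM in sgBap1-Veh, 9.73, 9.16 and 11.6 in NTC-CCl4, and 7.67, 4.18 and 7.18 in sgBap1-CCl4 livers. Its fall was 4.48-fold in NTC (-2.16 ± 0.27, adjusted p = 0.00017) and 5.85-fold in sgBap1 livers (-2.55 ± 0.28, adjusted p = 6.56e-05, edgeR's quasi-likelihood test).

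Cyp3a13 and Cyp3a44 showed the smallest falls. Cyp3a13, which is also made outside the liver, measured 199 and 188 CPM in NTC-Veh, 225 and 178 CPM in sgBap1-Veh, 95.02, 75.2 and 105 in NTC-CCl4, and 101, 72.0 and 112 in sgBap1-CCl4 livers. It fell 2.11-fold in NTC (log2 fold change -1.08 ± 0.19, adjusted p = 0.00101) and 2.13-fold in sgBap1 livers (-1.09 ± 0.19, adjusted p = 0.00089, edgeR's quasi-likelihood test). Cyp3a44, another enzyme found mainly in females, measured 55.9 and 69.0 CPM in NTC-Veh, 148 and 66.0 CPM in sgBap1-Veh, 26.4, 23.3 and 33.4 in NTC-CCl4, and 22.0, 15.8 and 33.6 in sgBap1-CCl4 livers. Its fall was 2.25-fold in NTC (-1.17 ± 0.38, adjusted p = 0.0311) and 4.50-fold in sgBap1 livers (-2.17 ± 0.39, adjusted p = 0.00161). In NTC the call for Cyp3a44 was lost when either NTC-Veh liver or the 1st or the 2nd NTC-CCl4 liver was left out, with adjusted p of 0.0682 to 0.152, and under scaling by library size alone (-0.70, adjusted p = 0.139). In sgBap1 the log2 fold change was -1.47 (adjusted p = 0.0129) without the 1st sgBap1-Veh liver, the one at 148 CPM.

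**Figure D2:**
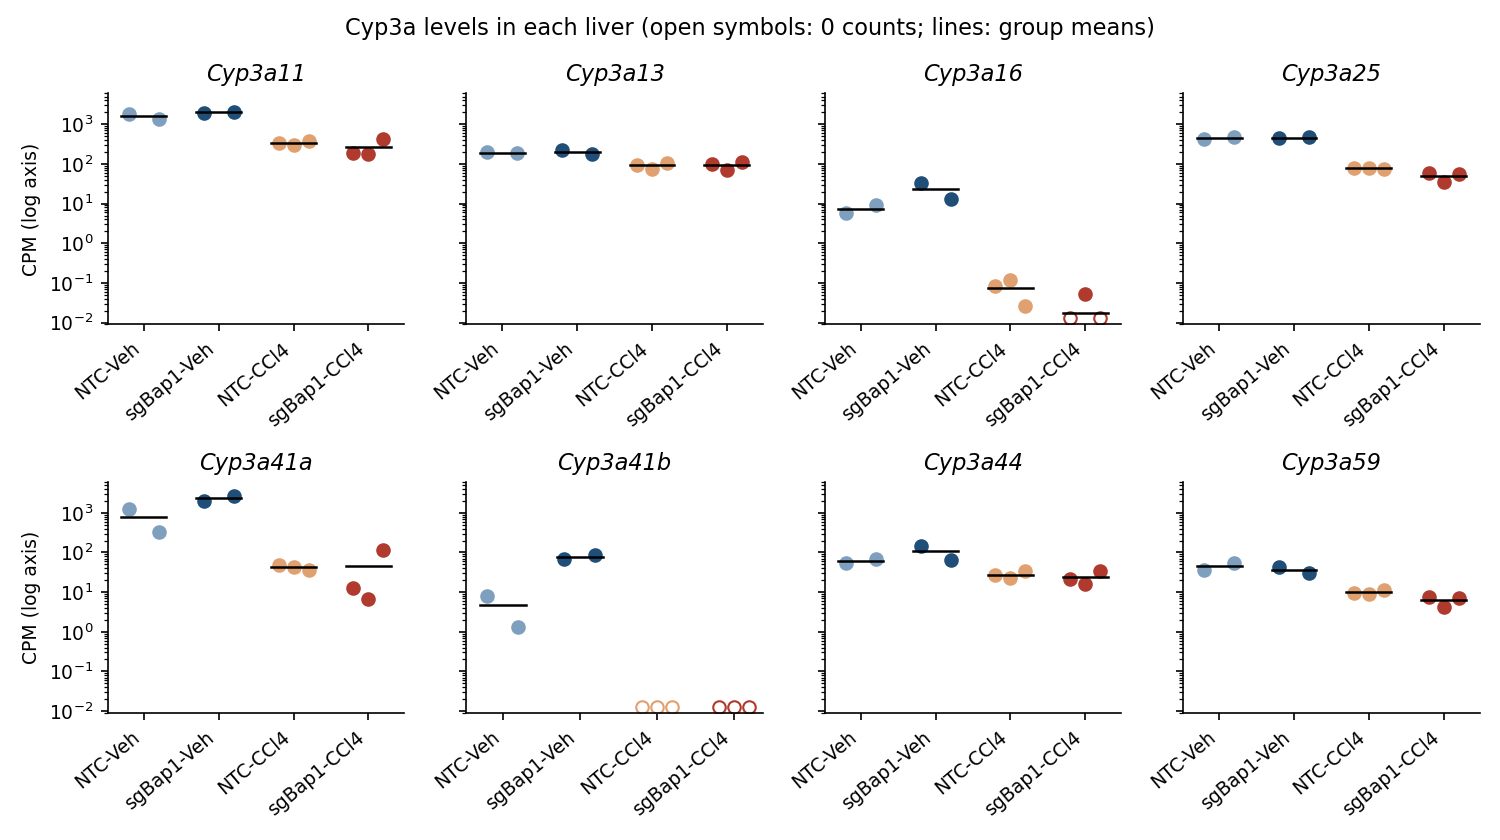
CPM (log axis) of each Cyp3a gene in the 10 livers, by group, with one point per liver and a line at the group mean. Every vehicle liver lies above every CCl4 liver of its genotype for all 8 genes, and Cyp3a41b is at 0 counts (open symbols) in all 6 CCl4 livers.

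**Figure D3:**
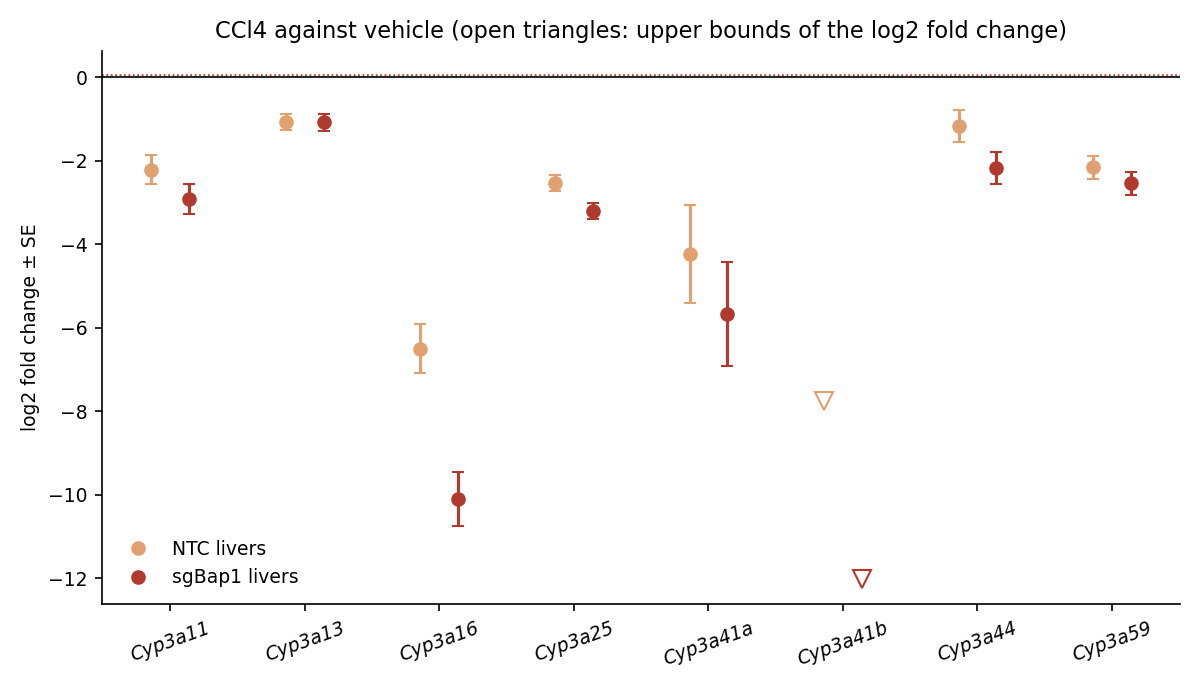
Log2 fold change of CCl4 against vehicle for each Cyp3a gene in NTC and sgBap1 livers, with bars of 1 SE, and dotted lines at the median of all tested genes. Fitted values drawn with bars run from about -1.1 for Cyp3a13 in both genotypes to -10.11 for Cyp3a16 in sgBap1 livers. Open triangles mark the bounds for Cyp3a41b, -7.76 in NTC and -12.02 in sgBap1 livers, whose treated livers had 0 counts.

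With these unequal falls the make-up of the family changed. Summed over the 8 members, the family measured 3822 and 2530 CPM in NTC-Veh, 4949 and 5610.3 CPM in sgBap1-Veh, 603, 537 and 647 in NTC-CCl4, and 385, 309 and 764 CPM in the sgBap1-CCl4 livers. Vehicle and treated livers were apart in both genotypes, and the sgBap1-Veh livers were both above the NTC-Veh livers. Cyp3a13 rose from 5.22% and 7.42% of the family's CPM in NTC-Veh to 14.0% to 16.2% in NTC-CCl4, and from 4.55% and 3.17% in sgBap1-Veh to 14.6% to 26.2% in sgBap1-CCl4 livers. Cyp3a41a made up 33.1% and 13.3% in NTC-Veh, 40.5% and 47.9% in sgBap1-Veh, between 5.597% and 8.09% in NTC-CCl4, and 3.22%, 2.22% and 15.5% in sgBap1-CCl4 livers. These shares are of counts, not of molecules, and were not tested.

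**Figure D4:**
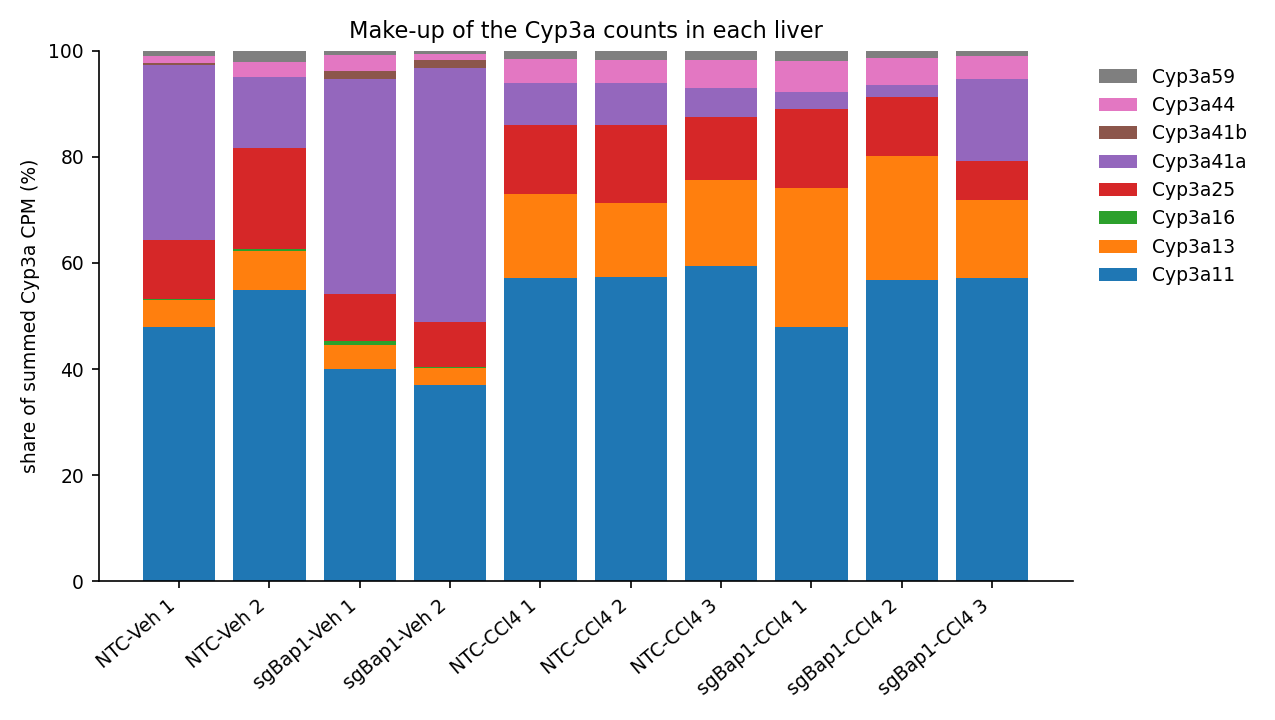
Share (%) of the summed Cyp3a CPM held by each gene, with one stacked bar per liver. Cyp3a41a reaches 40.5% and 47.9% in the sgBap1-Veh livers and at most 15.5% in the CCl4 livers, while Cyp3a13 rises from at most 7.42% with vehicle to at least 14.0% with CCl4.

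In vehicle livers, no member passed the test between sgBap1 and NTC, where 0.406% of all tested genes did in either direction. In edgeR's quasi-likelihood test 2 of the 8, Cyp3a16 and Cyp3a41b, had an unadjusted p under 0.05, as had 12.3% of all genes, and DESeq2's Wald test called 0. Of the members, 7 of 8 had values above 0, with a median log2 fold change of 0.56 against 0.02 for all genes. Among these 7, Cyp3a13 (0.06 ± 0.21 SE) and Cyp3a25 (0.02 ± 0.21 SE) were near 0 and changed sign in some fits with a mouse left out. Cyp3a41a and Cyp3a41b, near-identical copies, are counted here as 2 members. Cyp3a11, Cyp3a16, Cyp3a41a and Cyp3a41b, 4 of 8, were in both sgBap1-Veh mice above both NTC-Veh mice, which held for 21.7% of all genes. With 2 mice a side an exact permutation test cannot go below p = 0.333.

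Cyp3a41b was 16.6-fold higher with the Bap1 guide (log2 fold change 4.06 ± 0.93, adjusted p = 0.265, edgeR's quasi-likelihood test). Without the 1st NTC-Veh liver it was 5.86 on the log2 scale with an adjusted p of 0.0323, and with the counts of Cyp3a41a added the log2 fold change was 1.59 (adjusted p = 0.7). Cyp3a16 was 3.12-fold higher (1.64 ± 0.40, adjusted p = 0.0888), and 0.80 on the log2 scale without the 1st sgBap1-Veh liver. Cyp3a41a was 2.93-fold higher (1.55 ± 1.24, adjusted p = 0.708), with 0.89 and 2.79 on the log2 scale without the 2nd and the 1st NTC-Veh liver. The other members had log2 fold changes of 0.78 ± 0.43 for Cyp3a44, 0.33 ± 0.39 for Cyp3a11, 0.06 ± 0.21 for Cyp3a13, 0.02 ± 0.21 for Cyp3a25 and -0.30 ± 0.30 for Cyp3a59. The value of Cyp3a44 was 0.076 without the 1st and 1.24 without the 2nd sgBap1-Veh liver. Macrophage markers moved beside these values, summing to 446 and 307 CPM in the NTC-Veh and to 912 and 656 CPM in the sgBap1-Veh livers, and their part in the result was not tested.

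After CCl4 no member passed the test between the genotypes either, beside 0.329% of all tested genes. At an unadjusted p under 0.05 there were 2 of 8, Cyp3a25 and Cyp3a59, beside 14% of all genes, and these 2 were also the ones lower in all 3 sgBap1-CCl4 livers than in all 3 NTC-CCl4 livers, against 10.2% of all genes. Cyp3a25 was 1.58-fold lower (log2 fold change -0.66 ± 0.17, adjusted p = 0.128, edgeR's quasi-likelihood test), and DESeq2's Wald test called it, with an adjusted p of 0.00964. Cyp3a59 was 1.60-fold lower (-0.68 ± 0.26, adjusted p = 0.283). Without the liver that held fat cell RNA the values were -0.46 (adjusted p = 0.106) and -0.45 (adjusted p = 0.509).

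Cyp3a11 after CCl4 had a log2 fold change of -0.38 ± 0.32 between the genotypes (adjusted p = 0.629), and -0.95 with an adjusted p of 0.0445 without the 3rd sgBap1-CCl4 liver. Cyp3a41a measured 0.11 ± 1.00 and -2.15 without that liver. Cyp3a13 (0.05 ± 0.18), Cyp3a44 (-0.22 ± 0.35) and Cyp3a16 (-1.96 ± 1.49) did not pass the test, and no fold is given for Cyp3a41b, which was at 0 counts in both groups. All 3 counts of Cyp3a16 in sgBap1-CCl4 came from the liver with fat cell RNA, and without it the value fitted against 0 counts was -4.80.

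**Figure D5:**
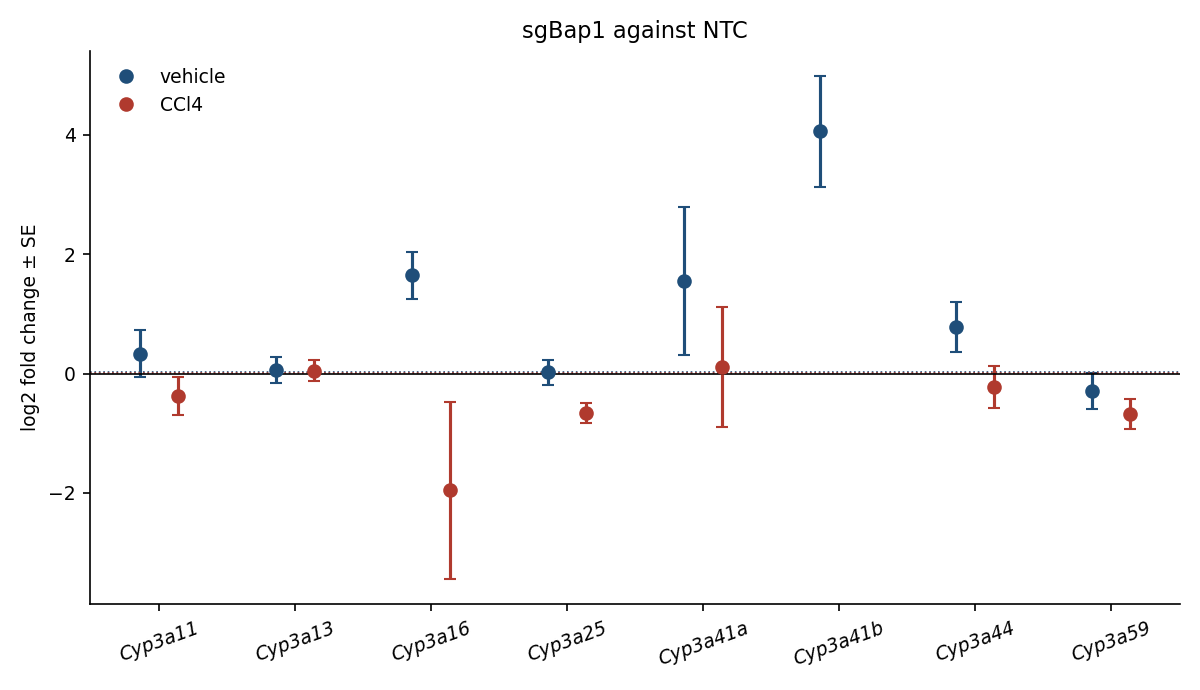
Log2 fold change of sgBap1 against NTC for each Cyp3a gene in vehicle and CCl4 livers, with bars of 1 SE and dotted lines at the median of all tested genes. With vehicle 7 of 8 genes lie above 0, led by Cyp3a41b at 4.06, and with CCl4 most lie near or below 0; Cyp3a41b has no CCl4 value because both groups were at 0 counts.

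Whether CCl4 acted differently in the genotypes was tested by the interaction, the log2 fold change of CCl4 in sgBap1 minus that in NTC livers. No member and 0% of all tested genes passed, and 2 of 8 members had an unadjusted p under 0.05, beside 10.4% of all genes. These were Cyp3a16 (-3.60 ± 1.54, adjusted p = 0.442) and Cyp3a25 (-0.68 ± 0.27, adjusted p = 0.403, edgeR's quasi-likelihood test). The value of Cyp3a16 rests on 3 counts in the liver with fat cell RNA, and was -6.44 without that liver and -2.76 without the 1st sgBap1-Veh liver. DESeq2's Wald test called 0 members as well. The interaction was below 0 for all 7 members for which a fold could be given, with a median of -0.71 beside -0.02 for all genes, and was -0.01 ± 0.28 for Cyp3a13. The falls with CCl4 in the genotypes rest on separate mice, but the interaction shares its 4 groups with the comparisons above and adds no mice to them.

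Other genes of the pathway were taken from fixed lists. The list of regulators held 19 genes for transcription factors that act on Cyp3a promoters or on hepatocyte genes. With CCl4, 12 fell and 2 rose in NTC livers (median -0.80), and 9 fell and 3 rose in sgBap1 livers (median -0.49). The median in sgBap1 is of the size of the shift of all genes under scaling by library size alone, and that in NTC is not far beyond it. Nr1i2, the gene for PXR, fell from 86.0 to 44.3 CPM in NTC (log2 fold change -0.96 ± 0.14, adjusted p = 0.0003, edgeR's quasi-likelihood test), and its log2 fold change in sgBap1 livers was -1.26 ± 0.14 (adjusted p = 4.6e-05). Nr1i3, the gene for CAR, fell from 532 to 97.0 CPM in NTC (-2.45, adjusted p = 5.5e-05) and from 458 to 61.8 CPM in sgBap1 livers (-2.89, adjusted p = 2.1e-05). Rxra, the partner of both receptors, fell in both genotypes (log2 fold changes -0.82 and -0.60), as did Cebpa, a hepatocyte differentiation factor (-1.56 and -1.92). Hnf4a, a master regulator of hepatocyte genes, measured 580 and 486 CPM in NTC-Veh and NTC-CCl4 livers (-0.25, adjusted p = 0.12) and did not pass the test in sgBap1 livers either. Between the genotypes, no gene of this list was called with vehicle and 1 of 19, Cebpd, was called higher after CCl4 (adjusted p = 0.039, and 0.0445 to 0.216 with a mouse left out, which ended the call in 8 of 10 cases).

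Of 18 genes for the electron supply and haem synthesis of P450 enzymes, 13 were lower and 2 higher in both genotypes. The medians, -0.64 in NTC and -0.72 in sgBap1, are not far beyond the shift of all genes under scaling by library size alone. Por, which passes electrons to every Cyp3a enzyme, fell from 653 to 150 CPM in NTC (log2 fold change -2.12, adjusted p = 1.2e-06, edgeR's quasi-likelihood test) and from 571 to 171 CPM in sgBap1 livers (-1.74, adjusted p = 2.5e-06). Cyb5a, which aids many P450 reactions, fell in both genotypes (-1.35 and -1.71), and so did Alas1, the rate-limiting enzyme of haem synthesis (-1.43 and -1.19), and Pgrmc1, a haem-binding partner of P450 enzymes (-1.06 and -1.24). No gene of this list was called between the genotypes.

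Among 24 other target genes of PXR and CAR, 12 fell and 1 rose in NTC (median -0.97), and 16 fell and 1 rose in sgBap1 livers (median -1.32). Cyp2c29 (log2 fold changes -1.59 and -1.57), Ugt1a1, the bilirubin conjugating enzyme (-2.10 and -2.36), and Abcc2, a canalicular export pump (-0.79 and -0.96), fell in both genotypes, while Gstm1 (0.18 and -0.20) did not pass. Of 30 measured P450 genes of other drug-metabolising families, 26 fell and 1 rose in NTC (median -1.61), and 27 fell in sgBap1 livers (median -1.72). Cyp2e1 fell from 9745 to 186 CPM in NTC (-5.71) and also in sgBap1 livers (-6.08), and Cyp1a2 and Cyp2d26 fell in both as well. Cyp2a4, a P450 found mainly in females, was the exception, with a rise of 0.76 in NTC (adjusted p = 0.012) and a fall of 0.99 in sgBap1 livers (adjusted p = 0.0021), whose difference did not pass (interaction -1.75, adjusted p = 0.069). No gene of these lists was called between the genotypes.

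Since Cyp3a41a, Cyp3a41b and Cyp3a44 are found mainly in females, genes with a sex bias in mouse liver were counted beside them. Of 22 female-biased genes, 15 fell and 2 rose in NTC (median -1.69), and 18 fell and 1 rose in sgBap1 livers (median -1.81). Among the highest were Lifr, a cytokine receptor gene (-1.57 and -1.39), and Cyp2c69 (-4.36 and -4.04). Of 14 tested male-biased genes, 8 and 7 fell and 1 rose in each (medians -1.36 and -1.16). Genes of growth hormone signalling fell in 9 and 7 of 14 cases and rose in 3 and 3 (medians -1.28 and -0.89), among them the receptor gene Ghr (-1.91 and -2.24). Bcl6, a repressor with a known part in the sex bias of liver genes, was the single gene of these lists called between genotypes, with a level that went from 5.995 CPM under the NTC guide to 21.9 CPM under the Bap1 guide in vehicle livers (log2 fold change 1.87, adjusted p = 0.019) and 8.48 and 23.2 CPM after CCl4 (1.45, adjusted p = 0.019, edgeR's quasi-likelihood test). Leaving out a mouse ended each of these calls in 3 of 10 cases, with adjusted p of up to 0.104 with vehicle (without the 2nd NTC-Veh liver) and up to 0.092 after CCl4 (without the 1st NTC-CCl4 liver), and the replicate block ended the call with vehicle (adjusted p = 0.0744).

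Markers of hepatocyte position fell along with the family. Pericentral markers, genes of the zone that CCl4 injures, fell in 13 of 15 cases in NTC and 14 of 15 in sgBap1 livers (medians -2.76 and -2.87), and summed to 14817 to 18465 CPM in vehicle and 1505 to 2392 CPM in CCl4 livers. Periportal markers, from the zone CCl4 spares, fell in 12 and 13 of 15 cases (medians -1.76 and -1.81) and summed to 20987 to 25809 and 6755 to 8581 CPM. General hepatocyte markers fell in 8 and 6 of 15 and rose in 1 and 3 (medians -0.67 and -0.47, of the size of that shift in scaling), and summed to 144594 to 208289 and 101007 to 132633 CPM. Macrophage markers rose in 10 of 13 cases in NTC and in 7 of 13 in sgBap1 livers, where 2 fell, and their sum went from 307 to 912 CPM with vehicle to 1208 to 1801 CPM with CCl4. The part of these shifts in the fall of the Cyp3a genes was not tested.

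Outside the family, the genes whose pattern over the 10 livers was nearest to each member were taken by the root mean square distance of centred log2 CPM among 13373 genes, as a description. Nearest to Cyp3a11 were Ugt3a1 (distance 0.26), Cyp27a1, an enzyme of bile acid synthesis, and Pcsk4. For Cyp3a13 they were Cyp2c23 (0.11), Pdcd4 and Zdhhc9, and for Cyp3a25 Pecr (0.13), Apol7a and Slco1b2, a hepatocyte uptake transporter. Cyp3a44 was nearest to Insig1 (0.23), AC135859.1 and Pstpip2, and Cyp3a59 to Cyp2b9 (0.22), P2ry4 and Ugt1a1. Matches were looser for the members with the widest changes, with Serpina6 (0.88), Mup10 and Sult2a8 for Cyp3a41a, Hamp2 (0.77), Car1 and Cyp2e1 for Cyp3a16, and Gm13775 (1.05), Hamp2 and Mup17 for Cyp3a41b. Within the family the nearest pairs were Cyp3a25 with Cyp3a59 (0.34) and Cyp3a11 with Cyp3a25 (0.37). The near-identical Cyp3a41a and Cyp3a41b were 2.04 apart. That distance takes in the uncertain division of reads between them and the 0 counts of Cyp3a41b in the CCl4 livers.

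Outside the 8 members, 3 further rows carry a Cyp3a name. Cyp3a61-ps1 had 0 counts in all 10 livers and Cyp3a57 at most 6.06 counts in a liver. The third, Cyp3a63-ps, a pseudogene between Cyp3a41b and Cyp3a41a, had 1.18 and 0.421 CPM with the NTC guide and vehicle, 1.66 and 3.72 CPM with the Bap1 guide and vehicle, and at most 0.0827 CPM in the CCl4 livers.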

How the data were processed

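Polyadenylated RNA of the livers of 10 mice was sequenced by the authors as stranded paired reads of 50 bases, aligned to GRCm38 with STAR 2.7.6a, and quantified with Salmon 1.4.0 on GENCODE vM25. The deposited table holds these estimated counts (expected counts) per gene symbol without normalization, and Salmon divides reads that fit several genes between them by a model, so that the split between near-identical genes is an estimate. The library type set in Salmon is not given in the sources used here. Of the values, 9.22% are not whole, and all were rounded.

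The edgeR package (4.0.16, under R 4.3.3) was used for the tests. Genes that passed filterByExpr over the 4 groups (minimum count 10) were scaled by TMM and fitted in 1 robust quasi-likelihood model of the 4 groups. Each of the 4 contrasts between groups, and their interaction, was tested two-sided, with Benjamini-Hochberg adjustment over 17015 genes and a threshold of 0.05. The SE is the log2 fold change divided by the square root of the F statistic. CPM per liver was taken from counts and effective library sizes before rounding, and group values are mean ± SD. Replicates are separate mice. Between mice of a group, counts differed by a mean chi-square per gene of 15.5 to 90.1, far above counting error, so no library was taken for a copy. No batch is named in the labels.

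Members and lists were chosen with earlier results of these data known. Named genes are all members, at most 4 genes of a list by mean CPM, and Nr1i2, Nr1i3, Por, Hnf4a and Bcl6; Cebpd was named after its values were seen. The lists outside the text above (lymphocyte, stellate, endothelial, bile duct, fat cell, proliferation, acute phase and cytokine genes) are given below. Identity was computed from alignments with Biopython 1.88, and gene models come from GENCODE vM21 (vM25 not used here). Alternatives were DESeq2 size factors, library size alone, no filter beyond 1 count, a mean of 10 counts, unrounded counts, the legacy quasi-likelihood method, DESeq2's Wald test (DESeq2 1.42.0), only the groups compared, the replicate number as a block, Cyp3a41a and Cyp3a41b summed, and each mouse left out.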

Additional observations from a re-analysis of the deposited data

Results flagged for a closer look

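Cyp3a63-ps, an unprocessed pseudogene that is not among the 8 members, was flagged because both sgBap1-Veh livers were above both NTC-Veh livers. That held for 21.7% of all tested genes and, as the rule of choice, adds no separate support. Cyp3a63-ps averaged 2.69 CPM in the sgBap1-Veh and 0.798 CPM in the NTC-Veh livers. The log2 fold change was 1.72 ± 0.48 SE (adjusted p = 0.124, edgeR's quasi-likelihood test), so it did not pass the test. Of its stretches of 50 bases, 21.5% occur in another Cyp3a transcript, most of them in Cyp3a44, and its counts are uncertain to that degree. In the CCl4 livers it had 0 to 0.0827 CPM, at most 3.18 counts in a liver, and it passed the filter on low counts through the vehicle livers alone, so no fold for CCl4 is given.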

How the results depend on the processing

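Over all alternatives, 683 of 717 values for single members and comparisons kept their direction and their side of the threshold, 15 lost a call, all of them for CCl4 in NTC livers, 3 gained one and 16 changed sign. The number of members called lower with CCl4 was 5 in NTC livers with no filter and 6 to 8 with a mouse left out (6 without the 1st NTC-Veh liver), and 8 in sgBap1 livers under every alternative run except where DESeq2 gave no adjusted p for Cyp3a41a. That tool gave none for Cyp3a41a, or for Cyp3a41a and Cyp3a41b summed, in any comparison. In NTC livers Cyp3a41b lost its call with no filter (adjusted p = 0.136), in the model of only the 2 groups (0.0813) and with the replicate block (0.06), and Cyp3a41a and Cyp3a44 lost theirs with no filter (0.0517 and 0.0917). The summed pair had -4.24 with no filter (adjusted p = 0.0515) and -4.90 to -2.999 with a mouse left out, where its call was lost without the 1st NTC-Veh or the 3rd NTC-CCl4 liver.

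Scaling by library size alone moved the share of CCl4 calls on the higher side from 50.8% to 80.5% in NTC and from 50.9% to 78.3% in sgBap1 livers. It changed the direction of no member with CCl4, and gave family totals of 4338 CPM in sgBap1-Veh and 678 CPM in NTC-CCl4 livers, against 5279.7 and 596. For sgBap1 against NTC after CCl4 it moved that share from 60.7% to 50%.

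Calls over all genes between genotypes depended on the method. With vehicle, 69 genes became 32 by library size alone, 27 in the model of only the 2 groups, 548 by DESeq2's Wald test and 0 to 150 with a mouse left out, with 0 to 1 members among them. After CCl4, 56 became 94 with no filter, 28 with only the 2 groups, 480 by DESeq2 and 1 to 71 with a mouse left out, and members called were 1 by DESeq2 and 0 to 1 with a mouse left out. For the interaction, 0 became 2 by library size alone, 34 with no filter, 411 by DESeq2 and 0 to 7 with a mouse left out.

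The labels give the replicate numbers no meaning beyond a number. Deviations of same-numbered livers correlated by -0.15 to 0.10, and 0 of 6 CCl4 livers correlated best with their own number. With so few mice a group, these values cannot show whether same-numbered livers shared a batch. With the replicate block, 1 gene was called with vehicle and 24 after CCl4 between genotypes. The block turned the sgBap1-CCl4 against NTC-CCl4 value of Cyp3a41a from 0.11 to -1.11, as it did for the summed pair (-1.11), where leaving out a mouse gave -2.15 to 0.62. The cause was not tested.

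Other changes of sign were of values near 0. With a mouse left out, the vehicle values of Cyp3a13 ran from -0.12 to 0.22, of Cyp3a25 from -0.076 to 0.11 and of Cyp3a59 from -0.58 to 0.054, and Cyp3a25 was -0.0048 in the model of only the 2 groups. After CCl4, Cyp3a13 ran from -0.095 to 0.21 and Cyp3a44 from -0.56 to 0.0038. The interaction of Cyp3a13 ran from -0.17 to 0.17, and was 0.011 with no filter.

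With 2 or 3 mice a group, a difference that missed the threshold is not shown to be absent. In a fit without 1 vehicle mouse the group has a single liver, which is assumed to vary like the others. Counts near 0 limit Cyp3a16 and Cyp3a41b with CCl4.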

Other observations

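Other fixed lists were counted for CCl4 in these livers. Of all tested genes, 26.6% in NTC and 28% in sgBap1 livers were called lower, and about as many were called higher. All 10 proliferation genes rose in both genotypes (median log2 fold change 5.197 in NTC and 4.37 in sgBap1 livers). Stellate cell genes rose in 7 of 9 cases in NTC and 6 of 9 in sgBap1 livers (medians 1.96 and 2.03), and summed to 1811 CPM in the sgBap1-CCl4 liver with fat cell RNA against 612 to 853 CPM in the other CCl4 livers. Endothelial genes rose in 5 and 4 of 8, with 2 falls in sgBap1, and bile duct genes in 2 of 6 in each, near the share of all genes. Lymphocyte genes rose in 5 of 11 cases in NTC and in 0 of 11 in sgBap1 livers, a difference that no single gene of the list passed as an interaction. Of 14 acute phase genes 6 rose in each genotype and 2 and 1 fell, and of 11 cytokine and cytokine receptor genes 7 and 5 rose and 1 fell in NTC livers. Only 3 of 10 fat cell genes passed the filter, of which 1 rose in NTC and 2 in sgBap1 livers, where a single liver held most of the fat cell RNA.

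Between genotypes with vehicle, 2 of 13 macrophage genes were called higher, Cd74 (64.2 CPM in NTC-Veh and 163 CPM in sgBap1-Veh livers, adjusted p = 0.038, edgeR's quasi-likelihood test) and Csf1r (33.02 and 68.7 CPM, adjusted p = 0.049), the latter named after its values were seen. Leaving out a mouse ended the call for Cd74 in 7 of 10 cases (adjusted p 0.0254 to 0.228) and for Csf1r in 9 of 10 (0.0329 to 0.266), highest for both without the 2nd NTC-Veh liver, and the replicate block ended both (0.0744 and 0.115). After CCl4 no macrophage gene was called.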
